A study of Mus musculus with 4 samples.

Results

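The mouse genes named Zfp and a number, which encode zinc finger proteins, were followed through the transcriptomes of hematopoietic stem cells (HSC) and common lymphoid progenitors (CLP) of wild-type (WT) and GRK6 knockout (GRK6-/-) mice. Members were every gene whose symbol is Zfp followed by a number, with or without a further letter and number. Of 12597 genes that had a row of their own in at least 1 library, 310 were members. For comparisons between libraries 300 of these were used, because the other 10 were also named in a row that joined several genes in at least 1 library.

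RNA was sequenced in 4 libraries, 1 per group, made from HSC and from CLP of either genotype. Where 4 values are given they follow the order WT HSC, GRK6-/- HSC, then WT CLP, GRK6-/- CLP. All mice were C57BL/6 and, by the study's methods, 8 to 12 weeks old unless stated otherwise, and the knockout removes exons 3 to 9 of Grk6 in every cell of the animal. HSC were sorted from bone marrow as Lin-c-kit+sca-1+ cells and CLP by the same markers plus Il-7Ra+, so that, as labelled, the CLP gate is a subset of the HSC gate. Each library pooled the cDNA of 13 to 15 sorted cells from 3 to 4 mice, each cell having been amplified on its own by 20 and then 10 PCR cycles. There were no replicates, so the spread between mice cannot be given for any value below. In such pools, fewer cells that express a gene and less RNA per cell cannot be told apart.

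A zinc finger is a short protein fold in which cysteines and histidines hold a zinc ion. Fingers of the C2H2 type, with a pair of each residue, mostly read DNA, and many C2H2 proteins also carry a KRAB domain, which recruits the corepressor Trim28 and, through it, the histone methyltransferase Setdb1 to silence retroelements and other loci. Fingers of the CCCH type bind RNA, and the Zfp36 family uses them to hold AU-rich messages and hand them to the deadenylation machinery. Members of that family restrain the division of developing lymphocytes, and Zfp36l2 is required to maintain blood stem cells.

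The kinds of finger that divide the members are shown for the genes that the results turn on, as coding sequence read from the NCBIM37 (mm9) genome on the gene's strand with the GENCODE vM1 annotation. Each stretch lies within a single coding exon. Capitals mark the codons of the zinc-binding cysteines and histidines, and in the KRAB stretch all letters are capitals. The first CCCH fingers lie at chr7:29163177-29163236 (minus strand) in Zfp36, chr12:81211176-81211235 (minus) in Zfp36l1 and chr17:84586008-84586067 (minus) in Zfp36l2. The first C2H2 fingers lie at chr11:58130885-58130947 (minus) in Zfp672 and chr9:22043121-22043186 (plus) in Zfp809, a KRAB protein known to silence murine leukemia virus, and the KRAB stretch of Zfp809 lies at chr9:22039476-22039499 (plus).
Zfp36: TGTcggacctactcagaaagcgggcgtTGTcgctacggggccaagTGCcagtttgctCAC
Zfp36l1: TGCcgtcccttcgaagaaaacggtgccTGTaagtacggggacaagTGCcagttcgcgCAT
Zfp36l2: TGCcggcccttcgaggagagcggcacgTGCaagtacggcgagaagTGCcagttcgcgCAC
Zfp672: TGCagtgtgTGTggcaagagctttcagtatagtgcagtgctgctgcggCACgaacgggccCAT
Zfp809: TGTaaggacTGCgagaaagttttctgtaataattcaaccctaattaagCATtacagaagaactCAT
Zfp809 KRAB: TTTGAGGATGTAGCCGTGGACTTC
Over these 60 bases, Zfp36l1 and Zfp36l2 were identical at 49, Zfp36 and Zfp36l1 at 42, and Zfp36 and Zfp36l2 at 40.

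A search of the annotated proteins placed the 300 compared members into classes. A C2H2 finger was counted where a pair of cysteines and a pair of histidines stood at the usual spacing, and a KRAB domain where an 8-residue stretch typical of it was found in the first 200 residues. A KRAB domain with other letters, or one that starts later or lies in another transcript, was missed, so the class without it is named as not found and not as absent. C2H2 fingers with the KRAB stretch were found in 126 members, with a median of 12 fingers, and C2H2 fingers without it in 162, with a median of 8. The 3 CCCH members are Zfp36, Zfp36l1 and Zfp36l2. No C2H2 motif was found in 6 members, and 3 had no annotated protein. By position, chromosome 7 held 76 of all 310 members, chromosome 17 held 43 and chromosome 13 held 29, and 187 had another member within 250 kb.

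Facts of the whole data set that touch these values are few. The sort markers were partly present: Kit was measured in all 4 libraries (26.2 to 81.8 FPKM), Ly6a, which encodes Sca-1, had no row in any, and Il7r had no row in WT HSC, 1.08 FPKM in its GRK6-/- counterpart, and 120.1 and 75.1 in the CLP of WT and GRK6-/-. Grk6 itself was at 42.7 and 89.4 FPKM in WT and GRK6-/- HSC and 26.9 and 57.6 in WT and GRK6-/- CLP, so it was higher in both libraries labelled as knockout, and a value per gene does not show whether fragments came from the deleted exons. Genotypes below are those of the labels. Summed erythroid marker levels were 338 and 1701 FPKM in WT and GRK6-/- HSC and 154.2 and 18111 in WT and GRK6-/- CLP, with 7 of 7 measured markers higher in both GRK6-/- libraries and 3 of the 10 listed, among them Hba-a1 and Hbb-b1, without a row in any library. Summed B-lineage marker levels were 0 and 0.64 in WT and GRK6-/- HSC and 200.2 and 1355 in WT and GRK6-/- CLP, with Pax5 and Ighm without a row in any library. Summed myeloid marker levels ran from 7371 FPKM in GRK6-/- CLP to 16100 in WT HSC. Megakaryocyte sums were 122.5 and 6.41 FPKM in WT and GRK6-/- HSC and 13.2 and 84.5 in WT and GRK6-/- CLP. T-lineage sums were at most 9.64 FPKM in any library. These markers move with genotype and population alongside the Zfp values, and their part in the differences given here was not tested.

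Most Zfp genes were detected in each library, but at low levels. A row was given for 257 members in WT HSC (82.9%, exact Clopper-Pearson 95% interval 78.2 to 86.9), for 265 in GRK6-/- HSC (85.5%, 81.1 to 89.2), for 240 in WT CLP (77.4%, 72.4 to 82.0) and for 224 in GRK6-/- CLP (72.3%, 66.9 to 77.2), intervals that cover counting error over genes only. Among all genes the shares were 83.2%, 86.9%, 79.1% and 81.2% in the same order. GRK6-/- CLP was the library in which the share of members lay farthest below that of all genes. Both shares are over genes with a row in at least 1 library, were not matched for level, and their difference was not tested. The median FPKM of members with a row was 4.16 and 2.98 in WT and GRK6-/- HSC and 4.66 and 5.20 in WT and GRK6-/- CLP, where all genes with a row had medians of 10.7, 9.28, 11.9 and 11.995. An FPKM of at least 10 was reached by 65, 48, 64 and 66 members and of at least 100 by 2, 1, 3 and 2. All members added up to between 0.281% and 0.3801% of the FPKM of a library, and the 3 highest members alone made up between 15.4% and 19.8% of that sum.

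Detection was uneven from library to library. A row in all 4 libraries was present for 164 members (52.9%), against 65.5% of all genes, in 3 for 69, in 2 for 46 and in 1 for 31. A single library thus held 10.0% of members and 12.9% of all genes. GRK6-/- HSC alone held 12 members, WT HSC alone 8, WT CLP alone 6 and GRK6-/- CLP alone 5, and of all 12597 genes 580, 362, 253 and 425 in that order. Only rows of a gene's own are counted here. Zfp97 and Zfp956, counted for WT HSC alone, and Zfp783, counted for WT CLP alone, are also named in joint rows of other libraries. Among the 300 compared members, the highest seen in a single library was Zfp687, which encodes a partner of chromatin regulators, at 27.3 FPKM in GRK6-/- HSC and with no row in the other 3. Why a row is missing is not stated in the files. By the spacing of the lowest values, 1 fragment in a transcript of 2 kb was worth about 0.169 and 0.129 FPKM in WT and GRK6-/- HSC and 0.112 and 0.180 in WT and GRK6-/- CLP, and 34, 31, 26 and 24 members with a row lay below 3 such fragments. The depth this implies lies below the read number that the study's methods give for each lineage, so these counts of fragments are approximate.

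The KRAB class was seen less evenly than the rest. Only 45 of its 126 genes (35.7%) had a row in all 4 libraries, against 111 of the 162 C2H2 genes in which no KRAB stretch was found (68.5%). Per library, 74.6% and 80.2% of the KRAB class had a row in WT and GRK6-/- HSC and 69.0% and 60.3% in WT and GRK6-/- CLP, and the other C2H2 genes stood at 90.1%, 91.4%, 83.3% and 82.7%. The lower detection of the KRAB class was thus present in each of the 4 libraries. Where they had a row, KRAB genes had a median FPKM of 2.22 and 1.59 in WT and GRK6-/- HSC and 3.72 and 4.55 in WT and GRK6-/- CLP, and the other C2H2 genes 4.84, 4.16, 6.26 and 5.28. A mean of at least 10 FPKM over the 4 libraries was reached by 6 KRAB genes and by 44 other C2H2 genes. Members with another Zfp locus within 250 kb had a row in all 4 libraries in 47.5% of cases and members without such a neighbour in 65.0%, and on chromosome 13 only 7 of 27 members did. These shares are descriptions of single libraries and carry no test.

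**Figure D1:**
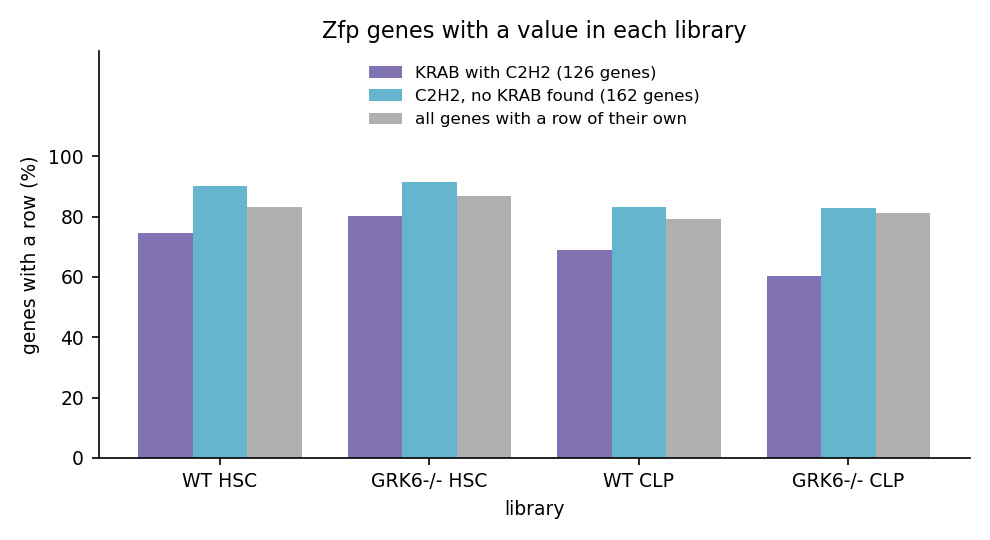
Share of genes with a row (y axis, percent) in each of the 4 libraries (x axis), for the 126 Zfp genes with C2H2 fingers and the KRAB stretch, the 162 C2H2 genes in which no KRAB stretch was found, and all genes with a row of their own. The KRAB bars are the lowest in every library and fall to 60.3% in GRK6-/- CLP.

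**Figure D2:**
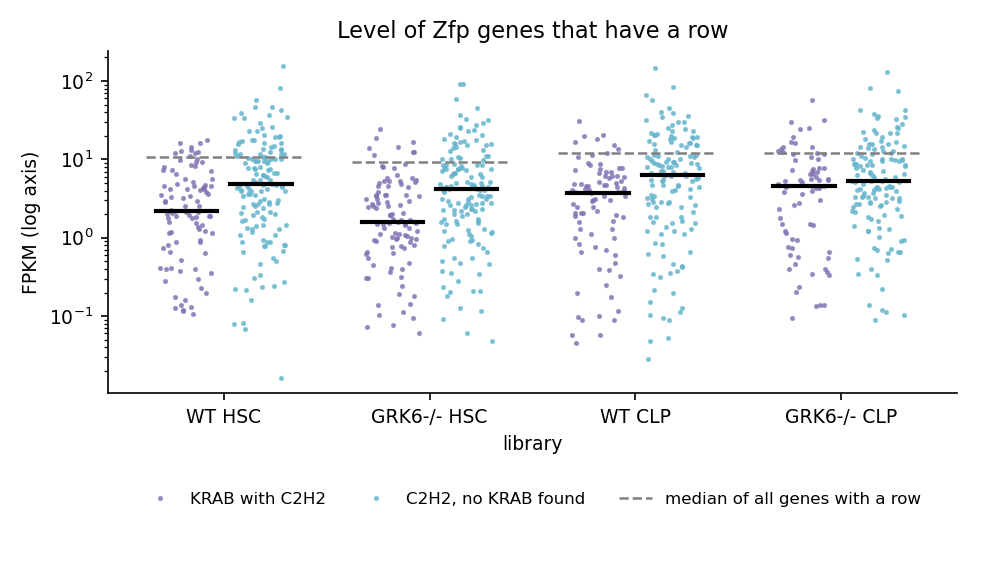
FPKM on a log axis of the Zfp genes that had a row, 1 point per gene, by library (x axis) and class, with black lines at the class medians and dashed lines at the median of all genes with a row. Both class medians lie below the dashed line in each library, and the KRAB median is the lower of the 2 in each.

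The highest levels belonged to CCCH genes and to C2H2 genes in which no KRAB stretch was found. Zfp36l2 had 134.7 and 141.1 FPKM in WT and GRK6-/- HSC and 190.5 and 139.8 in WT and GRK6-/- CLP, the highest mean of all members. Zfp207, a spindle and kinetochore protein that stabilizes Bub3, followed with 154.0, 92.7, 148.7 and 128.8 FPKM in the same order. Zfp706, which encodes a small protein with 1 finger, had 46.0, 59.6, 84.4 and 82.6 FPKM. These genes varied by less than 1 on the log2(FPKM + 1) scale between their lowest and highest library. On that scale 1 is about a doubling for high values, and the change of low values is understated. The KRAB gene with the highest mean was Zfp386, with 13.1 and 24.6 FPKM in WT and GRK6-/- HSC and 20.1 and 57.2 in WT and GRK6-/- CLP, a gene chosen after its values were seen.

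The 3 CCCH decay factors differed in how steady they were across the libraries. Zfp36, or tristetraprolin, had 26.3 and 83.3 FPKM in WT and GRK6-/- HSC and 140.4 and 67.4 in WT and GRK6-/- CLP. It was lowest in WT HSC and highest in WT CLP, with the GRK6-/- libraries between them, so the genotype difference was 1.63 in HSC and -1.05 in CLP on the log2 scale of FPKM + 1. Zfp36l1 had no row in WT HSC, 2.42 FPKM in its GRK6-/- counterpart, and 20.7 and 16.5 in the CLP of WT and GRK6-/-, and both CLP libraries lay above both HSC libraries. Its CLP-to-HSC difference within GRK6-/- was 2.36. Zfp36l2, the closest relative of Zfp36l1 in its finger, differed by 0.07 between genotypes in HSC, by -0.44 in CLP, and by 0.50 and -0.01 between populations in WT and GRK6-/-. The fourth family member on the list, Zfp36l3, had no row in any library.

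The machinery these proteins recruit was also read out. Of 17 genes of the CCR4-NOT, PAN and decapping complexes, which shorten tails and remove caps, 16 could be compared. In GRK6-/- against WT HSC 3 were higher and 4 lower by at least 1 on the log2 scale, and in CLP 5 were higher and 5 lower. Of all genes 19.3% were higher and 18% lower in HSC, and 26.6% and 23.4% in CLP. Cnot1, the scaffold of CCR4-NOT that binds the Zfp36 proteins, had 9.02 and 20.9 FPKM in WT and GRK6-/- HSC and 7.48 and 52.1 in WT and GRK6-/- CLP, the higher value in each population being that of GRK6-/-. The list as a whole had a median difference of -0.47 in HSC and -0.02 in CLP.

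**Figure D3:**
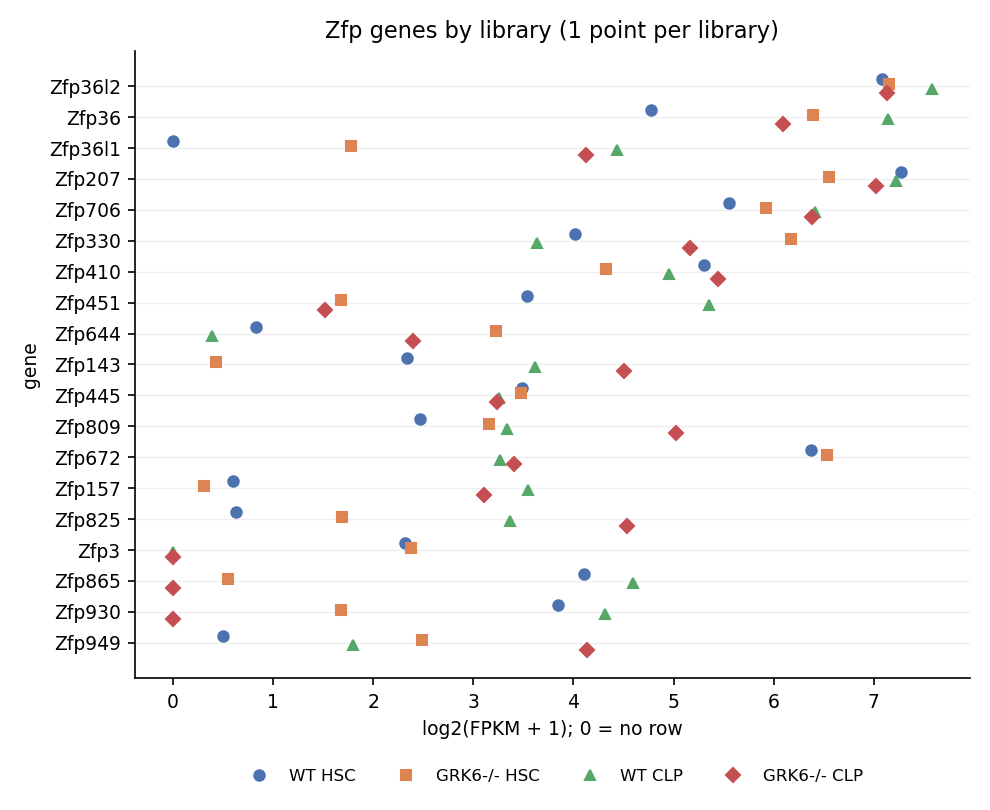
Level of 19 Zfp genes (y axis) in the 4 libraries as log2(FPKM + 1) (x axis), 1 marker per library, with 0 for no row. Zfp36l2 and Zfp207 stay at the right in all 4 libraries, Zfp36l1 and Zfp825 are higher in both CLP libraries, Zfp672 is higher in both HSC libraries, and Zfp330 is higher in both GRK6-/- libraries.

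The question of the knockout in HSC was addressed by comparing GRK6-/- HSC with WT HSC. Of 287 members with a row in at least 1 of these libraries, 59 were higher in GRK6-/- HSC by at least 1 on the log2(FPKM + 1) scale and 72 were lower. Of all genes, 19.3% were higher and 18% lower by that measure, and of the members 20.6% and 25.1%. The median member differed by -0.08 and the median gene by 0.05. A row was missing in WT HSC for 21 of the 59 and in GRK6-/- HSC for 20 of the 72. Over all genes it was missing for 613 of 2249 and for 399 of 2097. At a mean of 1 to 10 FPKM 54.8% of members were past the threshold in either direction, against 50.8% of all genes in that range, and at a mean over 10 FPKM 43.5% against 33.3%.

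Among members with a row in both HSC libraries, the lowest relative to WT HSC were genes of moderate level there. Zfp367 had 33.7 FPKM in WT HSC and 1.27 in GRK6-/- HSC, a difference of -3.93. Zfp799 had 36.4 and 1.64 FPKM (-3.83), and Zfp865 had 16.2 and 0.457 FPKM (-3.57). All 3 came down to less than 2 FPKM in GRK6-/- HSC, where few fragments lie behind a value. Zfp772 (11.0 and 0.0953 FPKM, -3.46), Zfp51 (11.96 and 0.409 FPKM, -3.20) and Zfp867 (9.15 and 0.305 FPKM, -2.96) completed the 6, and these last 3 are of the KRAB class. Zfp772 and Zfp867 lay below 0.386 FPKM in GRK6-/- HSC, the value of 3 fragments in a transcript of 2 kb there. In the other direction, Zfp101 went from 2.06 FPKM in WT HSC to 18.9 in GRK6-/- HSC (2.70), Zfp560 from 0.939 to 12.4 (2.79) and Zfp7 from 0.128 to 5.85 (2.60). These are also KRAB genes, and Zfp7 lay below the same limit of 3 fragments in WT HSC, 0.507 FPKM. Zfp330, a nucleolar protein, differed by 2.16 from a higher base, with 15.2 FPKM in WT HSC and 71.0 in GRK6-/- HSC. Zfp644, a partner of the histone methyltransferases G9a and GLP, had 0.776 and 8.34 FPKM (2.40).

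In CLP more members lay far apart. Of 269 members with a row in at least 1 of the CLP libraries, 80 were higher in GRK6-/- CLP and 80 lower, 29.7% each, where 26.6% and 23.4% of all genes were. The median member differed by -0.04. Between GRK6-/- CLP and WT CLP, 26 of the higher members had no row in WT CLP and 34 of the lower had none in GRK6-/- CLP. Over all genes this held for 903 of 2973 higher and 724 of 2620 lower. At a mean of 1 to 10 FPKM 70.4% of members were past the threshold, against 66.2% of all genes in that range, and at a mean over 10 FPKM 54.1% against 45.0%.

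The members lowest relative to WT CLP included some of the better expressed C2H2 genes. Zfp358 had 57.5 FPKM in WT CLP and 0.748 in GRK6-/- CLP, a difference of -5.06, the farthest of any member with a row in both. Zfp451, a SUMO ligase, had 39.9 and 1.86 FPKM (-3.83), and Zfp637 had 45.4 and 4.44 FPKM (-3.09). Zfp46 had 20.8 and 0.687 FPKM (-3.69), Zfp275 had 10.1 and 0.112 FPKM (-3.32), and Zfp518a had 10.8 and 0.665 FPKM (-2.83). No KRAB stretch was found in any of these 6. Zfp275 lay below 0.540 FPKM in GRK6-/- CLP, the value of 3 fragments in a transcript of 2 kb there. The highest relative to WT CLP were Zfp712 (0.0569 and 11.7 FPKM, 3.58), Zfp944 (0.249 and 12.4 FPKM, 3.43), Zfp954 (0.116 and 10.6 FPKM, 3.38) and Zfp606 (0.473 and 13.4 FPKM, 3.29), all of the KRAB class. The WT CLP values of Zfp712, Zfp944 and Zfp954 lay below 0.337 FPKM, the same limit of 3 fragments in WT CLP. Neither class as a whole went one way. Of 104 KRAB genes compared in CLP, 33 were higher in GRK6-/- and 32 lower, and of 153 other C2H2 genes 45 and 46. Of all genes 26.6% were higher and 23.4% lower. Zfp830, a splicing-associated protein, had 1.60 FPKM in WT CLP and 24.8 in GRK6-/- CLP (3.31). Zfp433 had 0.522 and 18.9 FPKM (3.71), but its row lies on a repeated stretch of chromosome 10 where other symbols, Gm10778 and Zfp781, have rows in GRK6-/- HSC, so its values are uncertain.

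Directions held across both populations for a small part of the members. Of 256 members that could be compared in both, 17 were higher in GRK6-/- by the threshold in HSC and in CLP and 17 were lower in both. These are 6.64% each, where 5.66% of all genes were higher in both and 4.43% lower in both. Opposite directions were more frequent: 41 members (16.0%) were past the threshold one way in HSC and the other way in CLP, against 10.8% of all genes. Each population's difference comes from libraries of its own, so the HSC and CLP comparisons share no library.

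Among those higher in both, Zfp330 had 15.2 and 71.0 FPKM in WT and GRK6-/- HSC and 11.5 and 34.9 in WT and GRK6-/- CLP. The 2 GRK6-/- values lay above the 2 WT values, with differences of 2.16 and 1.53. Zfp346, which binds double-stranded RNA, had 3.94, 11.1, 2.84 and 15.5 FPKM in the same order (1.29 and 2.11). Zfp180 had 2.57, 9.79, 1.82 and 11.1 FPKM (1.60 and 2.10), and Zfp949 had 0.415, 4.61, 2.48 and 16.6 FPKM (1.99 and 2.34). Zfp644 had 0.776, 8.34, 0.313 and 4.26 FPKM, with differences of 2.40 and 2.003. Zfp27 had no row in either WT library, 2.34 FPKM in GRK6-/- HSC and 6.01 in GRK6-/- CLP. For Zfp934 (4.18, 16.4, 0.112 and 9.74 FPKM) 22.6% of the 100-base windows of its transcripts also occur in other genes, most often Zfp808, and for Zfp955a (0.735, 8.18, 1.93 and 10.1 FPKM) 32.3% do, most often in Zfp955b. Fragments from such windows cannot be assigned with certainty, and Zfp955b itself had 9.14, 1.13, 0.388 and 0.334 FPKM.

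Among those lower in both, Zfp451 had 10.6 and 2.20 FPKM in WT and GRK6-/- HSC and 39.9 and 1.86 in WT and GRK6-/- CLP, with differences of -1.85 and -3.83. Zfp865 had 16.2, 0.457 and 23.2 FPKM and no row in GRK6-/- CLP, and Zfp930 had 13.4, 2.19 and 18.8 FPKM and no row in GRK6-/- CLP. For these 3 genes both WT values lay above both GRK6-/- values. Zfp772 had 11.0, 0.0953, 4.66 and 0.657 FPKM (-3.46 and -1.77). Zfp867 had 9.15, 0.305 and 2.20 FPKM and no row in GRK6-/- CLP. Zfp341, which regulates Stat3, had no row in either GRK6-/- library and 2.48 and 8.08 FPKM in the HSC and CLP of WT.

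**Figure D4:**
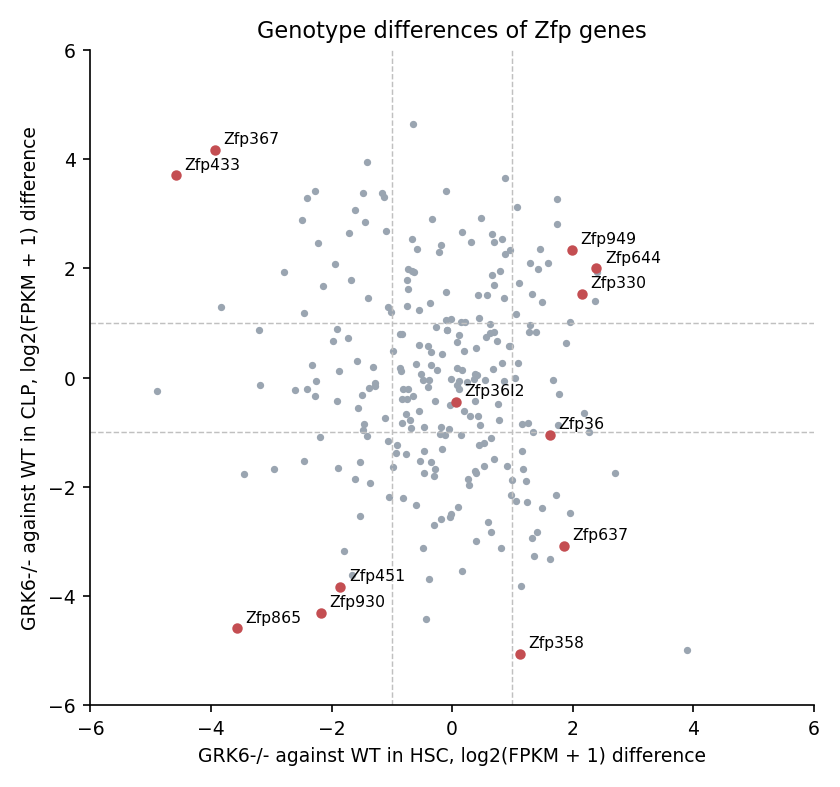
Difference of GRK6-/- against WT in HSC (x axis) and in CLP (y axis) on the log2(FPKM + 1) scale for the 256 Zfp genes compared in both, 1 point per gene, with dashed lines at -1 and 1. Points spread to all 4 corners, with 17 genes at the upper right, 17 at the lower left and 41 in the other corners.

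The question of a genotype effect common to both populations could be tested only in a fit of all 4 libraries with genotype and population as terms, which leaves 1 residual degree of freedom. In limma, 0 of 240 members fitted had an adjusted p under 0.05 for genotype, where 0.0678% of all genes fitted did, and 4 members (1.67%) had an unadjusted p under that level, against 5.14% of all genes fitted. The lowest adjusted p of a member was 0.488 in limma, for Zfp865 (-4.08, SE 1.29, with the missing row taken as 0). Zfp930 (-3.24), Zfp451 (-2.84) and Zfp330 (1.84) were the other 3. A test with so little freedom says nothing of members whose values did not pass it.

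Between populations, the members were spread about as widely as between genotypes. In WT, 75 of 277 members were higher in CLP than in HSC and 74 lower, where 21.8% of all genes were higher and 24.7% lower. The members' shares were 27.1% and 26.7%. In GRK6-/-, 68 of 279 were higher in CLP (24.4%) and 59 lower (21.1%), where 22.3% and 23.4% of all genes were. In either direction 45.5% of members were past the threshold in GRK6-/-, close to the 45.6% of all genes. Of 256 members compared in both genotypes, 20 were higher in CLP in both (7.81%), 13 lower in both (5.08%) and 35 past the threshold in opposite directions (13.7%), against 5.98%, 6.82% and 11.3% of all genes.

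Zfp672, a C2H2 gene with 13 fingers found, set the 2 populations apart in both genotypes. It had 81.9 FPKM in WT HSC and 91.9 in GRK6-/- HSC, but 8.60 in WT CLP and 9.61 in GRK6-/- CLP, differences of -3.11 and -3.13, while the genotypes differed by 0.16 in HSC and 0.14 in CLP. Both HSC values thus lay far above both CLP values. Zfp958 had 16.1 and 8.72 FPKM in WT and GRK6-/- HSC and 3.36 and 2.76 in WT and GRK6-/- CLP. Zfp3 had 4.00 and 4.21 FPKM in the HSC libraries and no row in either CLP library, and Zfp595 had 4.16 and 5.10 FPKM in HSC, 0.0578 in WT CLP and no row in GRK6-/- CLP. Zfp273 had 11.9 and 1.59 FPKM in HSC and no row in CLP. Zfp566 was also higher in HSC in each genotype, with 7.38 and 14.4 FPKM against no row in WT CLP and 3.82 in GRK6-/- CLP.

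In the other direction stood Zfp36l1, described above, and a group of mostly KRAB genes. Zfp958, Zfp595, Zfp273 and Zfp566, higher in HSC, are KRAB genes too. Of 114 KRAB genes compared in WT, 36 were higher in CLP and 32 lower, and of 115 in GRK6-/- 31 each way. Of all genes 21.8% were higher and 24.7% lower in WT, and 22.3% and 23.4% in GRK6-/-. Zfp157 had 0.513 and 0.241 FPKM in WT and GRK6-/- HSC and 10.6 and 7.64 in WT and GRK6-/- CLP, differences of 2.94 and 2.80. Zfp825 had 0.546, 2.23, 9.28 and 22.2 FPKM in the same order, differences of 2.73 and 2.84. Zfp707 had 3.81, 0.756, 18.3 and 9.77 FPKM, differences of 2.01 and 2.62. For each of these both CLP values lay above both HSC values. Zfp14 had 0.405 FPKM in WT HSC, no row in its GRK6-/- counterpart, and 4.65 and 4.51 FPKM in the CLP of WT and GRK6-/-. Zfp658 had no row in WT HSC and 0.0771 FPKM in GRK6-/- HSC, against 3.81 and 3.62 in the CLP libraries.

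**Figure D5:**
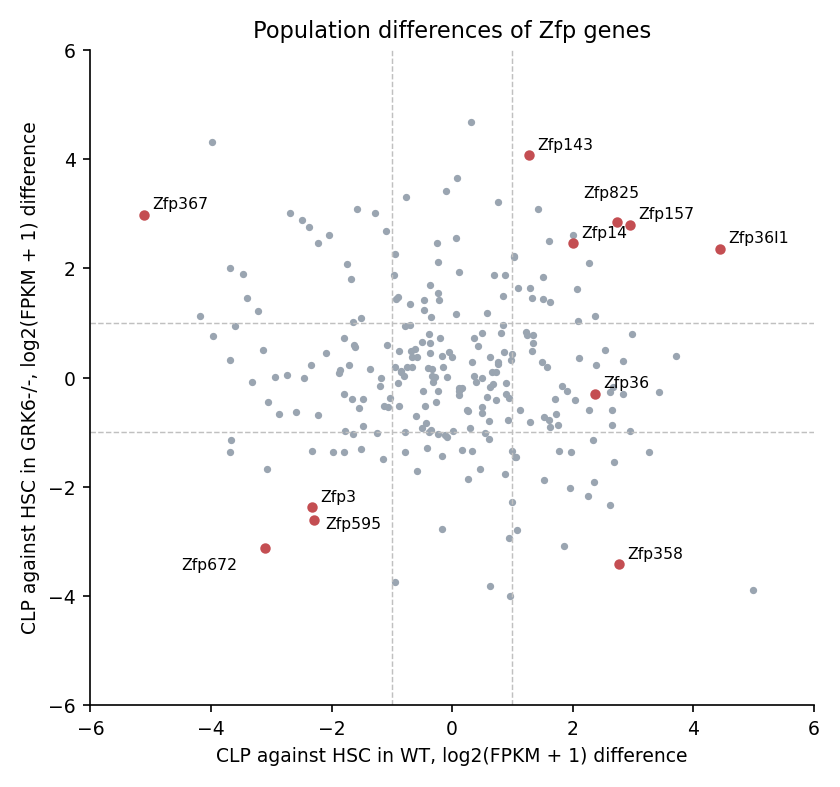
Difference of CLP against HSC in WT (x axis) and in GRK6-/- (y axis) on the log2(FPKM + 1) scale for the 256 Zfp genes compared in both genotypes, 1 point per gene, with dashed lines at -1 and 1. Zfp672 lies near -3.11 and -3.13, and Zfp36l1, Zfp157 and Zfp825 lie at the upper right.

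For population, limma called 0 of 240 members at an adjusted p under 0.05, where 0.291% of all genes fitted were called, and 6 members (2.5%) had an unadjusted p under that level, against 6.59% of all genes fitted. Zfp672 had the lowest adjusted p in limma, 0.120 (-3.12, SE 0.795). The other 5 were Zfp36l1 (3.40, SE 1.24, missing row taken as 0), Zfp825 (2.79), Zfp143 (2.68), Zfp12 (2.26) and Zfp157 (2.87), all higher in CLP.

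Counts by role are given beside the shares of all genes, at 19.3% above and 18% below WT in GRK6-/- HSC and 26.6% above and 23.4% below in CLP. Of 9 members linked to blood and lymphoid cells 8 had a row in at least 1 library. In HSC 0 of 8 were higher in GRK6-/- and 1 lower by the threshold, and in CLP 0 were higher and 1 lower, where 37.4% and 50.0% of all genes were past it in either direction. The list's medians were -0.44 and -0.72. Zfp335, needed for T-cell maturation, had 16.5 and 12.7 FPKM in WT and GRK6-/- HSC and 31.6 and 10.1 in WT and GRK6-/- CLP. Zfp91, a ubiquitin ligase of the noncanonical NF-kB pathway, had 23.3, 15.6, 29.7 and 19.1 FPKM, and Zfp148, a partner of Gata1, had 11.8, 4.93, 15.5 and 8.85 FPKM. In both populations the GRK6-/- value of these 3 genes was the lower, by between 0.36 and 1.56. Zfp521, an early progenitor factor that antagonizes Ebf1, stayed between 0.399 and 1.62 FPKM in all 4 libraries. Zfp423 had no row in any.

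Of 8 members that silence retroelements or guard imprints, 6 had a row in at least 1 library. In GRK6-/- against WT, 1 was higher and 2 lower of 6 in HSC, and 1 higher and 1 lower of 4 in CLP, against 19.3% and 18% of all genes in HSC and 26.6% and 23.4% in CLP. Zfp445, which protects imprinted methylation, was one of the steadiest members, with 10.2 and 10.1 FPKM in WT and GRK6-/- HSC and 8.58 and 8.44 in WT and GRK6-/- CLP. Zfp57, which does the same, had a row in WT HSC alone, at 2.93 FPKM. Zfp809, whose finger and KRAB stretch are printed above, had 4.52, 7.90, 9.11 and 31.7 FPKM, with GRK6-/- CLP above the other 3. Zfp932, a repressor of endogenous retroviruses with 27.9% of its windows also found elsewhere, most often in Gm15446, had 13.6, 7.58, 23.3 and 8.17 FPKM. Their corepressors were measured throughout: 20 of 21 genes on the list had a row in every library. Of these 20, in GRK6-/- against WT HSC 1 was higher and 4 lower, where 19.3% and 18% of all genes were. In CLP 4 were higher and 2 lower, where 26.6% and 23.4% of all genes were. Trim28 had 111.0, 87.2, 70.9 and 91.8 FPKM, and Setdb1 had 15.6, 6.69, 17.9 and 6.74 FPKM, lower in GRK6-/- by 1.11 in HSC and 1.29 in CLP. Levels of Trim28 exceeded those of every KRAB member in each library.

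All 10 members on the list of RNA, ribosome and spindle proteins had a row in every library. In HSC 2 were higher and 3 lower in GRK6-/-, and in CLP 3 higher and 0 lower, against 19.3% and 18% of all genes in HSC and 26.6% and 23.4% in CLP. Zfp622 and Zfp593, which act in assembly of the large ribosomal subunit, stayed within 0.18 and 0.42 of WT in either population, at 10.1 to 21.7 FPKM and 13.0 to 21.4 FPKM. Zfp598, a sensor of collided ribosomes, had 20.3 and 6.20 FPKM in WT and GRK6-/- HSC and 15.6 and 10.2 in WT and GRK6-/- CLP. Zfp326, which couples splicing to elongation, had 7.61, 2.32, 16.5 and 14.4 FPKM, higher in CLP in both genotypes by 1.03 and 2.21. Zfp106, another RNA-binding member, had 12.6, 14.6, 20.1 and 12.8 FPKM.

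Of 11 members on the chromatin and transcription list, 3 were higher and 2 lower in GRK6-/- HSC, where 19.3% and 18% of all genes were, and of 9 compared in CLP 1 was higher and 4 lower, with a median of -0.84. Of all genes 26.6% were higher and 23.4% lower in CLP, 50.0% in either direction. Zfp143, which binds promoters and loop anchors, had 4.06 and 0.349 FPKM in WT and GRK6-/- HSC and 11.3 and 21.7 in WT and GRK6-/- CLP, above HSC in both genotypes by 1.28 and 4.07. Zfp410, an activator of Chd4, had 38.5, 19.04, 29.9 and 42.4 FPKM, and Zfp592 had 9.61, 7.35, 7.06 and 8.43 FPKM. Zfp217, which acts with CoREST, had 2.69, 7.82, 8.01 and 4.03 FPKM. Zfp609, which acts with Nipbl and Integrator, had 0.0782, 0.205 and 10.7 FPKM and no row in GRK6-/- CLP. On the pluripotency list, 3 of 4 had a row in every library and Zfp42 had none, and in GRK6-/- against WT 0 of 3 were past the threshold in HSC and 2 were lower in CLP, where 37.4% of all genes were past it in HSC and 23.4% lower in CLP. Zfp281 had 7.68, 3.39, 16.2 and 4.48 FPKM, and Zfp296 had 6.08, 4.45, 8.94 and 8.63 FPKM.

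By class, in HSC 46.6% of KRAB genes and 44.7% of the other C2H2 genes were past the threshold between genotypes, and in CLP 62.5% and 59.5%. Of all genes 37.4% were past it in HSC and 50.0% in CLP, and at a mean of 1 to 10 FPKM 50.8% and 66.2%. Between populations the shares of the 2 classes were 59.6% and 49.7% in WT and 53.9% and 39.2% in GRK6-/-. All genes stood at 46.5% in WT and 45.6% in GRK6-/-, and at a mean of 1 to 10 FPKM at 61.2% and 60.2%. The classes were not matched for level, and their differences were not tested. Neighbours on a chromosome, taken as 114 pairs of adjacent members, went the same way about as often as opposite ways: where both genes of a pair were past the threshold, 12 pairs had the same direction and 13 the opposite in GRK6-/- against WT HSC, and 19 and 17 in CLP. Near-identical copies went apart in some cases. Zfp874a and Zfp874b, with 92.9% identical proteins, had 0.376 and 4.53 FPKM in WT HSC, 1.45 and 3.09 in GRK6-/- HSC, none and 20.5 in WT CLP, and 4.78 and none in GRK6-/- CLP. In WT CLP a joint row naming Zfp87 and Zfp459, at 47.9 FPKM, overlaps the locus of Zfp874a, so its missing row there is uncertain. Zfp455 and Zfp456, with 90.0% identical proteins, were both lower in CLP, at 2.09 and 2.49 FPKM in WT and no row in GRK6-/-. In HSC they had none and 2.11 FPKM in WT and 0.878 and 1.52 in GRK6-/-. Of the members, 17 share over 10% of their 100-base windows with another gene, and their values are the least certain.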

How the data were processed

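RNA-seq values of 4 pooled libraries were analysed. Per the submitters' processing notes reads were aligned to mm9 with TopHat 1.4.0, and by the study's methods with the Tuxedo suite. The authors deposited FPKM (fragments scaled to transcript length and to the mapped fragments of the library), 1 value per gene and library, without counts or error bounds. Rows of the same symbol were summed, and genes without a row were taken as 0. Of the genes, 325 were named in joint rows, and those with a row of their own, 10 of them members, were left out of comparisons.

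Differences are log2(FPKM + 1), which understates the change of low values, on genes with a row in at least 1 of the libraries compared. With 1 library per group no pairwise p-value was computed, and a difference of at least 1 was counted beside the share among all genes. limma 3.58.1 (trend, R 4.3.3) was fitted on 10324 genes with a mean FPKM of at least 1, with Benjamini-Hochberg adjustment over all. Each gene has 1 residual degree of freedom, and its variance was drawn toward a trend over all genes before the p-value was taken. That residual is the difference between the genotype effects in HSC and in CLP, and not the spread between mice. Depth was estimated from multiples of 1, 2 and 3 fragments among the lowest values of single-transcript genes, within 10%, which 73.6% to 82.5% of these values fit.

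Proteins were translated from GENCODE vM1, aligned with Biopython 1.88, and searched for motifs. C2H2 was a pair of cysteines separated by 2 to 4 residues, 12 residues, and a pair of histidines separated by 3 to 5. Tables were handled with pandas 2.3.3 and numpy 2.4.6 in Python 3.11.15, intervals came from scipy 1.17.1 and figures from matplotlib 3.10.9. Scripts were tested on simulated data after a first run on the files. The members, lists and tests were chosen with earlier results of these data known. Named genes were role-list members with at least 5 FPKM in 1 library, the 10 highest means, the 6 farthest each way per population with a row in both libraries, those past the threshold in both comparisons (up to 6 each way), the closest protein pairs, named partners, and Grk6. Outside this rule, members with an unadjusted limma p under 0.05, role-list members below 5 FPKM, Zfp386 and genes of joint rows or shared loci were named after their values were seen. The alternatives were the pseudocount, filters, centring, the highest row per symbol, a 4-fold threshold, other fits and, added after seeing the data, keeping joint-row genes and leaving out members with shared sequence.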

Additional observations from a re-analysis of the deposited data

Results flagged for a closer look

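Among the 69 named Zfp genes, 12 were past the threshold in one direction in HSC and in the other in CLP, as differences of GRK6-/- against WT on the log2(FPKM + 1) scale. Many of the 69 were named because they lay far apart in 1 population, so this count is not set against the 10.8% of all genes that were opposite. For none of the 12 was this contrast between HSC and CLP tested, since each group has 1 library. Lower in GRK6-/- HSC and higher in GRK6-/- CLP were Zfp367 (-3.93 and 4.17), Zfp433 (-4.59 and 3.71), Zfp606 (-2.41 and 3.29), Zfp799 (-3.83 and 1.29), Zfp830 (-1.12 and 3.31), Zfp944 (-2.28 and 3.43) and Zfp954 (-1.16 and 3.38). Higher in GRK6-/- HSC and lower in GRK6-/- CLP were Zfp101 (2.70 and -1.75), Zfp275 (1.63 and -3.32), Zfp358 (1.13 and -5.06), Zfp36 (1.63 and -1.05) and Zfp637 (1.85 and -3.09). Zfp367 had no row in WT CLP and Zfp433 none in GRK6-/- HSC, so the differences that rest on those libraries depend on the pseudocount. Differences that rest on values below the pseudocount of 1 FPKM depend on it too. Such values were those of Zfp433 (0.522), Zfp606 (0.473), Zfp944 (0.249) and Zfp954 (0.116) in WT CLP. In GRK6-/- CLP they were those of Zfp101 (0.400), Zfp275 (0.112) and Zfp358 (0.748). In HSC they were those of Zfp275 in WT (0.808) and Zfp944 in GRK6-/- (0.664). Zfp36 (26.3 to 140.4 FPKM) is the one of the 12 in which all 4 values exceeded 20 FPKM.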

How the results depend on the processing

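No paired analysis was possible because each group has 1 library, and no library could be left out of the fit, which would then have 0 residual degrees of freedom. The share of members past the threshold, 45.6% for GRK6-/- against WT in HSC, 59.5% in CLP, 53.8% for CLP against HSC in WT and 45.5% in GRK6-/-, depended on how low values were treated. In that order it was 62.0%, 71.4%, 69.0% and 64.5% with a pseudocount of 0.1 FPKM. With at least 1 FPKM in 1 of the libraries compared it was 53.7%, 67.5%, 61.6% and 54.7%. At a mean of 1 to 10 FPKM it was 54.8%, 70.4%, 66.3% and 54.2%, where all genes stood at 50.8%, 66.2%, 61.2% and 60.2%. Past 4-fold it was 13.9%, 29.7%, 26.4% and 18.6%, where all genes stood at 12.4%, 24.8%, 20.5% and 19.1%. With a row in both libraries it was 39.0% for CLP against HSC in GRK6-/-. Where no share of all genes is given, these shares do not show whether the members differ from other genes. The share of members with an FPKM of at least 1 was 65.2% in each HSC library, 61.6% in WT CLP and 59.0% in its GRK6-/- counterpart. Centring on the median gene, the highest row per symbol, joint-row genes kept and members with shared sequence left out moved these shares by less than their counting interval. All 8 alternative limma fits called 0 members, as did the 2 reported. Of the named values, none changed direction with the smaller pseudocount and 16 came past the threshold. Depth limits members of a few fragments, and the estimates of depth may be too low.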

Other observations

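Of 364 protein-coding genes in the GENCODE vM1 annotation whose symbols follow the same rule, 306 had a row of their own in at least 1 library and 58 had none, Zfp42, Zfp423 and Zfp819 among them. Rows that named several Zfp genes together held values above the median of members with single rows in the same library. Zfp783 with Zfp956 had 9.31 FPKM in GRK6-/- HSC and 16.6 in GRK6-/- CLP, and Zfp868 with Zfp869 had 40.9 in GRK6-/- CLP. Zfp960 with Zfp97 had 31.3 in WT CLP, and Zfp426 with Zfp26 had 6.68 in WT HSC. The medians were 4.16 and 2.98 FPKM in WT and GRK6-/- HSC and 4.66 and 5.20 in WT and GRK6-/- CLP. Zfp960 and Zfp97, whose proteins are 96.3% identical, had rows of their own at 0.738 and 29.6 FPKM in WT HSC.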
